A study of Homo sapiens with 2 samples.

Results

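Ferritin, transferrin receptor and iron regulation genes were examined in RNA sequencing of THP1 cells treated with or without bort. THP1 is an established human line of monocytic leukaemia that carries the MLL-AF9 fusion, and bort stands for bortezomib, which blocks the proteasome. A total of 10 genes were chosen by their names (FTL, FTH1, TFRC, TFR2, ACO1, IREB2, NCOA4, PCBP1, PCBP2 and STEAP3). All 10 were found among the 10987 genes of the deposited table, and none of them fell below 1 FPKM in either library. The choice was made with the FPKM values of these same libraries already known, so the fold changes of the 10 genes are given as a description and carry no test. The series has 2 libraries, 1 from cells incubated with bort for 24 h and 1 from untreated cells, and the dose of bort and any vehicle in the untreated culture are not given in the labels. With 1 library per group there is no replicate check, no error can be attached to any value, and each comparison is between these 2 libraries and not between conditions. FPKM counts fragments relative to transcript length and to the size of the library, and how many fragments lie behind a value is unknown.

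The labelled cell type was checked first. Of 12 monocytic marker genes 5 were listed, and the absent ones included MPO, CD14 and CSF1R. The 5 summed to 24.7 FPKM without bort and 63.4 FPKM with it, and LYZ, the most abundant of them without bort, was at 7.61 and 28.7 FPKM. Of 14 erythroid marker genes 13 were listed, with sums of 4023 and 3565 FPKM and the fetal haemoglobin gene HBG1 highest, at 1487 and 1536 FPKM. These levels go against the label, and sample names below follow the labels alone. The part of these marker levels in the values below was not tested.

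Cells take up iron as transferrin bound to transferrin receptor 1 (TFRC), reduce it in the endosome with STEAP3, carry it in the cytosol on the poly(C)-binding proteins PCBP1 and PCBP2, and store what is not used inside ferritin, a hollow shell of heavy (FTH1) and light (FTL) chains. NCOA4 brings ferritin to the lysosome, where the iron is set free. When iron is scarce, the iron regulatory proteins IRP1 (ACO1) and IRP2 (IREB2) bind a hairpin in certain mRNAs, the iron-responsive element, which blocks translation of ferritin mRNA from its 5' end and protects TFRC mRNA from decay at its 3' end. Erythroid cells use much of their iron for haem and are known for high TFRC. RNA sequencing measures the mRNAs and not the proteins, so binding and translation were not measured here.

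Because the hairpin is the feature that ties both ferritin chains and TFRC together, it was searched for in the untranslated regions (UTRs) of protein-coding transcripts of GENCODE 29 (GRCh38). The pattern was an unpaired C, 5 bases, the 6-base loop CAGTGN and 5 bases that pair with the first 5 (G-T pairs allowed). It was present in the 5' UTR of FTL and FTH1 and in the 3' UTR of TFRC, and in no UTR of the other 7 genes. Each run of 30 bases below is written 5' to 3' with the loop in capitals. The first lies at chr19:48965334-48965363 on the + strand, in exon 1 of FTL. The second lies at chr11:61967574-61967603 on the - strand, in exon 1 of FTH1. The other 4 lie on the - strand in exon 19 of TFRC, its last exon, at chr3:196050979-196051008, chr3:196050575-196050604, chr3:196050510-196050539 and chr3:196050463-196050492.
FTL: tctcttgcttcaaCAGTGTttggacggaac
FTH1: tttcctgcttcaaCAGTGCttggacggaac
TFRC site 1: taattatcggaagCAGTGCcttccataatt
TFRC site 2: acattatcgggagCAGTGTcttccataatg
TFRC site 3: tctgtatcggagaCAGTGAtctccatatgt
TFRC site 4: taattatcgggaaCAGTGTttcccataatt

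The runs of the ferritin genes were alike at 27 of 30 positions. In the annotated transcripts 33 bases preceded the run of FTL and 57 bases that of FTH1, close to the 5' end. The 4 sites of TFRC spanned 546 bases. The pattern was rare: 36 of 19043 genes (0.189%) held it in a 5' UTR and 132 of 19146 genes (0.689%) in a 3' UTR. A match describes these letters only and does not show that a regulatory protein was bound. The pattern is strict and can miss known elements, so a UTR without a match may still hold one. EPAS1, described below among mRNAs known to carry the element, had no match in a 5' UTR.

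The mRNAs of the ferritin chains were higher and those of the transferrin receptors lower in the bort-treated library. Log2 fold changes, and the thresholds below, are on the log2(FPKM + 1) scale, on which differences of low genes come out too small. A fold given beside the levels of a single gene is instead the plain ratio of its FPKM values. FTL and FTH1 reached 2-fold higher and TFR2 and STEAP3 reached 2-fold lower, with TFRC just short of it. Of the 10 genes 2 were thus higher, where 8.08% of all 10987 genes were, and 2 were lower, where 10.2% of all genes were. At 1.5-fold 4 genes were higher, against 20.8% of all genes, and 3 were lower, against 21.6%. The median log2 fold change of the 10 genes was 0.16, and that of all genes 0.0049. Since the genes were chosen with these values known, nothing is read from the counts.

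**Figure D1:**
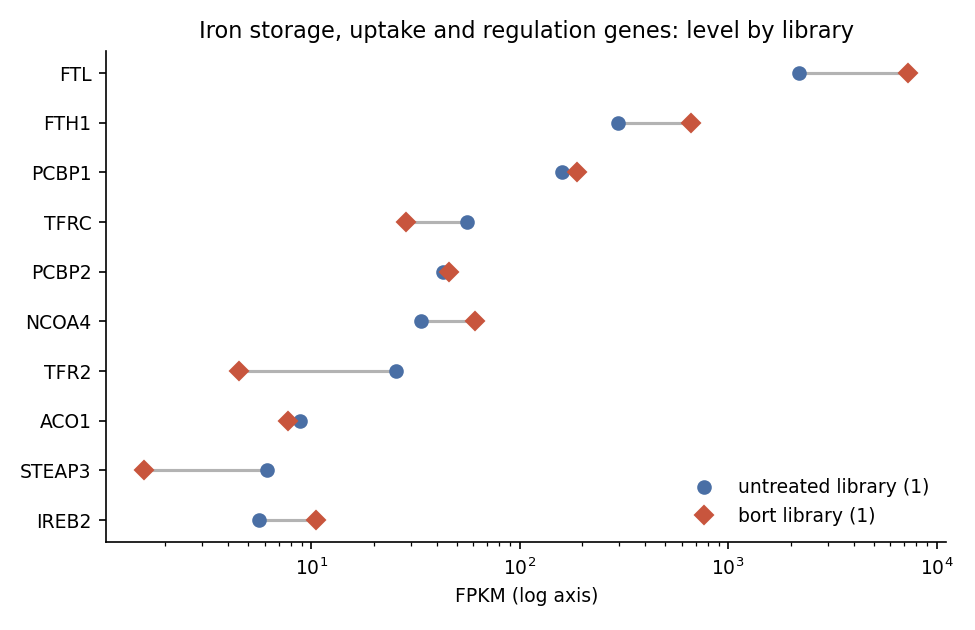
FPKM of each of the 10 genes on a log axis, with a circle for the untreated library and a diamond for the bort-treated library (1 library each, so no error bars). FTL, at 2191 and 7304 FPKM, lies above the other genes in both libraries, while STEAP3, TFR2 and TFRC are the genes whose diamond lies well to the left of the circle.

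FTL (ENSG00000087086.14_3, chr19:48965301-48966878 in GRCh38) encodes the ferritin light chain, which aids the laying down of the iron core. Its level was 2191 FPKM without bort and 7304 FPKM with it, 3.33-fold higher, with a log2 fold change of 1.74. It was the second most abundant gene of the untreated library, after the mitochondrially encoded MT-CO2, and the most abundant of the bort-treated library. Its share of the summed FPKM was 1.04% in the untreated and 3.30% in the bort-treated library. The 13 mitochondrially encoded genes were also all higher with bort, 11 of them by 2-fold or more, where 8.08% of all genes were. These 13 summed to 11694 FPKM without bort and 32011 FPKM with it. Their part in the level of FTL was not tested. A larger rise than that of FTL on the log2(FPKM + 1) scale was seen in 158 genes (1.44%).

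FTH1 (ENSG00000167996.15_3, chr11:61959718-61967660) encodes the ferritin heavy chain, which oxidises ferrous iron as it enters the shell. Its level was 297.2 FPKM without bort and 663.8 FPKM with it, 2.23-fold higher, with a log2 fold change of 1.16. The gene moved from rank 72 to rank 31 by FPKM, and 610 genes (5.55%) had a larger rise. Both ferritin mRNAs were thus higher in the same library. The ratio of FTL to FTH1 mRNA was 7.37 in the untreated and 11.0 in the bort-treated library, 1.49-fold higher. The mRNAs of the chains summed to 2488 FPKM and 7968 FPKM, 88.0% and 95.8% of the FPKM of all 10 genes.

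The levels of FTL and FTH1 are uncertain where fragments from near-identical copies could be placed on either. GENCODE 29 names 16 pseudogenes of FTL and 25 of FTH1, and 0 of these were listed in the deposited table, so how their fragments were assigned could not be examined. FTH1 also overlaps BEST1 on the opposite strand. The paper describes a stranded kit and the labels name a different one, so reads from the pair may not be separable.

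TFRC (ENSG00000072274.12_2, chr3:196027183-196082189) encodes transferrin receptor 1, through which most cells import iron. It was at 56.0 FPKM without bort and 28.6 FPKM with it, a change of -49.0%. The log2 fold change was -0.95, and 1234 genes (11.2%) had a larger fall. The rank of TFRC went from 677 to 1220. The ratio of ferritin mRNA to TFRC combines the differences already given and adds no separate result. There were 44.5 FPKM of FTL plus FTH1 for each FPKM of TFRC in the untreated library and 279.0 in the bort-treated library, 6.27 times as many.

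TFR2 (ENSG00000106327.12_2, chr7:100620416-100642779) encodes transferrin receptor 2, a sensor of iron-loaded transferrin found mainly in liver and erythroid cells, whose mRNA had no match to the hairpin pattern. It was at 25.5 FPKM without bort and 4.50 FPKM with it, 5.65-fold lower, with a log2 fold change of -2.27. Only 75 of all genes (0.683%) had a larger fall on this scale. The ratio of TFRC to TFR2 was 2.20 in the untreated and 6.34 in the bort-treated library. Erythroid transcription factors differed in direction. GATA1 and KLF1 were lower in the same library as TFR2, GATA1 at 161.3 and 48.7 FPKM (without and with bort) and KLF1 at 147.1 and 17.4 FPKM. TAL1 was higher there, at 11.1 and 22.0 FPKM, a log2 fold change of 0.93. Of the 13 listed erythroid markers 8 were lower and 5 were higher, where 49.7% of all genes were lower. Their median log2 fold change was -0.093, against 0.0049 for all genes. Of the 5 listed monocytic markers (of 12 sought) 4 were higher, with a median of 0.80. LYZ and CD68 reached 2-fold higher, as did 8.08% of all genes. Each listed gene reached at least 0.501 FPKM in a library, so some could count in 1 direction only. ITGAM, at 0.23 and 0.84 FPKM, was listed only through the bort-treated library. The erythroid AHSP, at 1.99 and 0.4996 FPKM, was listed only through the untreated one. Fewer cells of a type and less RNA per cell cannot be told apart in bulk RNA, and the part of either was not tested.

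STEAP3 (ENSG00000115107.19_2, chr2:119223831-119265652) encodes the ferrireductase that reduces iron in the transferrin endosome of erythroid precursors. It was at 6.14 FPKM without bort and 1.59 FPKM with it, 3.87-fold lower, with a log2 fold change of -1.47. In the bort-treated library it had the lowest level of the 10 genes, at rank 9035. TFRC, TFR2 and STEAP3 were thus all lower in the bort-treated library. An antisense gene overlaps STEAP3, so its reads may not be separable for the same reason as those of FTH1.

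**Figure D2:**
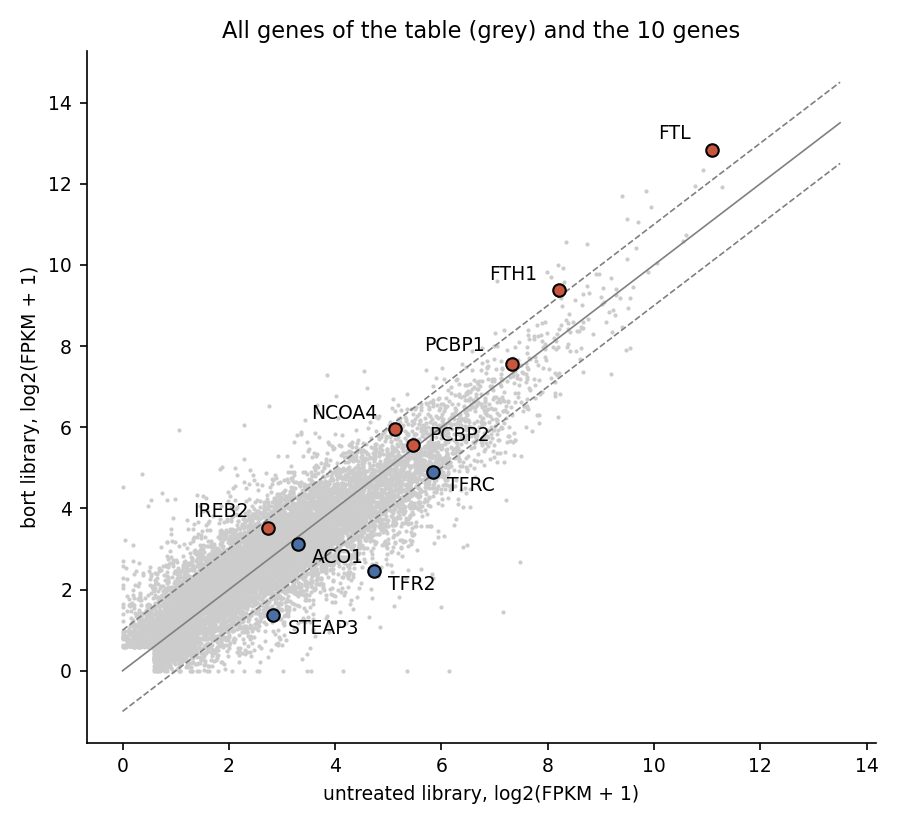
Each grey point is 1 of 10987 genes, with log2(FPKM + 1) of the untreated library on the x axis and of the bort-treated library on the y axis; the solid line marks equal levels and the dashed lines 2-fold. Of the 10 genes (red where higher and blue where lower with bort), FTL and FTH1 lie above the upper dashed line, TFR2 and STEAP3 below the lower one, and TFRC, at a log2 fold change of -0.95, close to it.

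Of the mRNAs of the iron regulatory proteins, that of ACO1 was near its untreated level and that of IREB2 was higher. ACO1 (ENSG00000122729.18_2, chr9:32384603-32454769) encodes IRP1, which works as a cytosolic aconitase when it holds an iron-sulphur cluster and binds the hairpin when it does not. It was at 8.83 FPKM without bort and 7.73 FPKM with it, a log2 fold change of -0.17. IREB2 (ENSG00000136381.12_2, chr15:78437431-78501456) encodes IRP2, which is known to be removed by the proteasome when iron is plentiful. It was at 5.64 FPKM without bort and 10.5 FPKM with it, 1.87-fold higher, with a log2 fold change of 0.80. The order of the pair was reversed between the libraries, with 1.57 FPKM of ACO1 for each FPKM of IREB2 in the untreated library and 0.734 in the bort-treated library. Their sum was 14.5 FPKM and 18.3 FPKM. An antisense gene overlaps IREB2, with the same uncertainty of strand as for FTH1.

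NCOA4, the receptor that carries ferritin to autophagosomes, was at 33.7 FPKM without bort and 61.1 FPKM with it, 1.81-fold higher, with a log2 fold change of 0.84. It was higher alongside both ferritin mRNAs, although 3 pseudogenes of NCOA4 are named in GENCODE 29 and not listed in the table. The iron chaperones were at similar levels in both libraries. PCBP1 was at 159.7 FPKM without bort and 188.1 FPKM with it, a log2 fold change of 0.23. PCBP2 was at 43.0 FPKM and 45.9 FPKM, a log2 fold change of 0.094. Their ratio, 3.72 and 4.10, was also close between the libraries. ACO1, PCBP1 and PCBP2 are the 3 genes of the 10 that did not reach 1.5-fold. PCBP2 overlaps 3 non-coding genes on its own strand, whose reads strand cannot separate, and MAP3K12 on the opposite strand. It also has 2 pseudogenes in GENCODE 29 that the table does not list. PCBP1 overlaps an antisense RNA.

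Fold changes in these libraries followed the GC content of transcripts, as Spearman's rho across 10907 genes with transcripts in GENCODE 29 was -0.47. Genes of the same 2 libraries are not independent replicates, and the part of GC content in any value was not tested. The ferritin genes stood against that trend. FTL (56.3% GC) and FTH1 (53.5% GC) lie in group 7 of 10 groups of like size ordered by GC content, in which the median log2 fold change was -0.23 and 4.31% of genes reached 2-fold higher. TFRC (41.5% GC) also stood against it, in group 2, where the median was 0.38 and 1.56% reached 2-fold lower. With the trend removed, the log2 fold changes were 2.02 for FTL, 1.33 for FTH1 and -1.32 for TFRC, which then passed 2-fold.

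For TFR2 (62.0% GC) and STEAP3 (57.6% GC) the trend ran in the direction of their change. In groups 9 and 8, which hold them, 21.9% and 17.3% of genes reached 2-fold lower, and with the trend removed their log2 fold changes were -1.79 and -1.14. The same was true of IREB2 (43.1% GC), which went from 0.80 to 0.50, and of NCOA4 (46.1% GC), which went from 0.84 to 0.67. PCBP1 (55.2% GC) went from 0.23 to 0.48.

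The wider iron pathway was described with 8 lists of 79 genes in all, of which 69 were listed. In that union 7 genes (10.1%) reached 2-fold higher and 4 (5.80%) reached 2-fold lower, and the median log2 fold change was -0.22. Over all genes the shares were 8.08% and 10.2%, against which the counts of each list below may be read. Among 13 listed genes of cellular iron transport 2 were higher and 1 was lower, with a median of -0.051. CYBRD1, a ferric reductase of the cell surface, was at 2.21 FPKM without bort and 7.46 FPKM with it, a log2 fold change of 1.40. SLC39A14, an importer of iron and zinc, was at 8.48 and 18.6 FPKM, a log2 fold change of 1.05. SLC40A1 (ferroportin), the iron exporter, was at 5.70 and 1.69 FPKM, a log2 fold change of -1.32. Genes of iron transport thus differed in direction in the library in which both ferritin mRNAs were higher. The transferrin receptor and exporter mRNAs were lower there, and those of SLC39A14 and CYBRD1 were higher. Of the 13 listed genes 6 were above and 7 below their untreated level, where 49.7% of all genes were below.

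Of 20 listed genes of mitochondrial iron and iron-sulphur cluster assembly 2 were higher and 1 was lower by 2-fold, with a median of -0.18. HSCB, a cochaperone that hands over new clusters, was at 3.96 and 11.6 FPKM, a log2 fold change of 1.35. NFU1, a late carrier of clusters, was at 7.54 and 18.2 FPKM, a log2 fold change of 1.17. FDXR, the reductase that supplies electrons to ferredoxin, was at 13.2 and 4.35 FPKM, a log2 fold change of -1.41. In the cytosolic assembly list 10 of 11 genes were below their untreated level, where 49.7% of all genes were. The median of that list was -0.43, which was 0.013 with the GC trend removed. Of its genes only BOLA2 passed 2-fold, at 18.7 and 6.21 FPKM, and it has a near-identical copy, so its value is uncertain. GLRX3 was the gene of that list above its untreated level, at 30.4 and 39.7 FPKM.

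All 4 listed genes of haem degradation (HMOX1 was not among them) were below their untreated level, as were 49.7% of all genes, with a median of -0.48, which was -0.27 with the GC trend removed. HMOX2, the constitutive haem oxygenase, was at 23.2 and 10.9 FPKM, a log2 fold change of -1.02, and BLVRB, the one nearest to its untreated level, was at 111.3 and 96.7 FPKM. In the list of receptor endocytosis and recycling, 1 of 11 genes was higher and 0 were lower by 2-fold, with a median of -0.12. RAB5A, a GTPase of early endosomes, was at 8.05 and 25.7 FPKM, a log2 fold change of 1.56, and AP2A1, an adaptor subunit of clathrin coats, was at 31.0 and 16.5 FPKM, a log2 fold change of -0.87. Of 3 genes that act on ferritin turnover with NCOA4, the autophagy adaptor TAX1BP1 was higher, at 8.19 and 20.7 FPKM, while HERC2, a ligase for NCOA4, was at 8.48 and 5.44 FPKM, a log2 fold change of -0.56. The 2 other listed poly(C)-binding genes, PCBP4 and HNRNPK, had log2 fold changes of -0.032 and -0.22.

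Other mRNAs known to carry an iron-responsive element differed in direction. Of 7 listed genes 1 was higher and 1 was lower, with a median of -0.093. EPAS1, the hypoxia factor HIF-2 alpha, was at 3.35 and 9.32 FPKM, a log2 fold change of 1.25, and SLC40A1 was the one that was lower. ALAS2, the erythroid enzyme that starts haem synthesis, was at 16.7 and 15.6 FPKM. The hairpin pattern, a search added after the values were seen, gave a set defined by sequence. Of the 25 listed genes whose 5' UTR held the pattern printed above, 4 reached 2-fold higher and 5 reached 2-fold lower, where 8.08% and 10.2% of all genes did. The counts, and the median that follows, include FTL and FTH1, whose values were known, so nothing is read from either. The median of the 25 was 0.14, against 0.0074 for all listed genes with a 5' UTR. FTL and FTH1 were 2 of the 4 higher genes, with ENC1 and UBXN7. Of the 96 listed genes with the pattern in a 3' UTR, TFRC among them, 8 (8.33%) were higher and 6 (6.25%) lower, near or below the shares of all genes, with a median of 0.11, against 0.0084 for all with a 3' UTR.

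**Figure D3:**
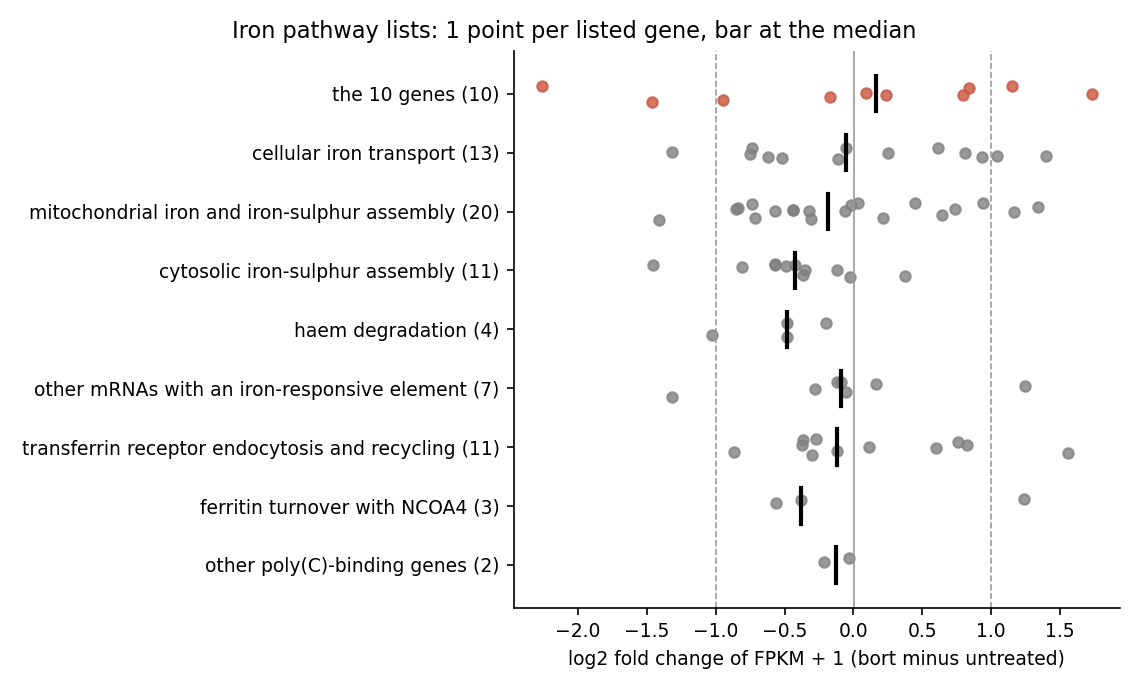
Log2 fold change of FPKM + 1 (bort-treated minus untreated), 1 point per listed gene with the number of genes in parentheses, a black bar at the median of each list, a grey line at the median of all genes and dashed lines at 2-fold. The 10 genes span -2.27 to 1.74, while the medians of the other lists lie between -0.48 and -0.051.

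The direction of each of the 10 genes was the same under 9 other settings of pseudocount, scaling and GC content. This was largely fixed by construction, because a pseudocount cannot change a sign and the log2 scale factors ranged only from -0.077 to 0.11. Another 2 settings, a filter at 1 FPKM and the summing of rows that share a symbol, could not alter any of the 10 values. FTL ranged from 1.66 to 2.02, FTH1 from 1.08 to 1.33, TFR2 from -2.50 to -1.79 and STEAP3 from -1.95 to -1.14, all past 2-fold. TFRC ranged from -1.32 to -0.84 and passed 2-fold under 2 of the 9 settings. IREB2, NCOA4, ACO1, PCBP1 and PCBP2 stayed short of 2-fold under each of the 9.

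**Figure D4:**
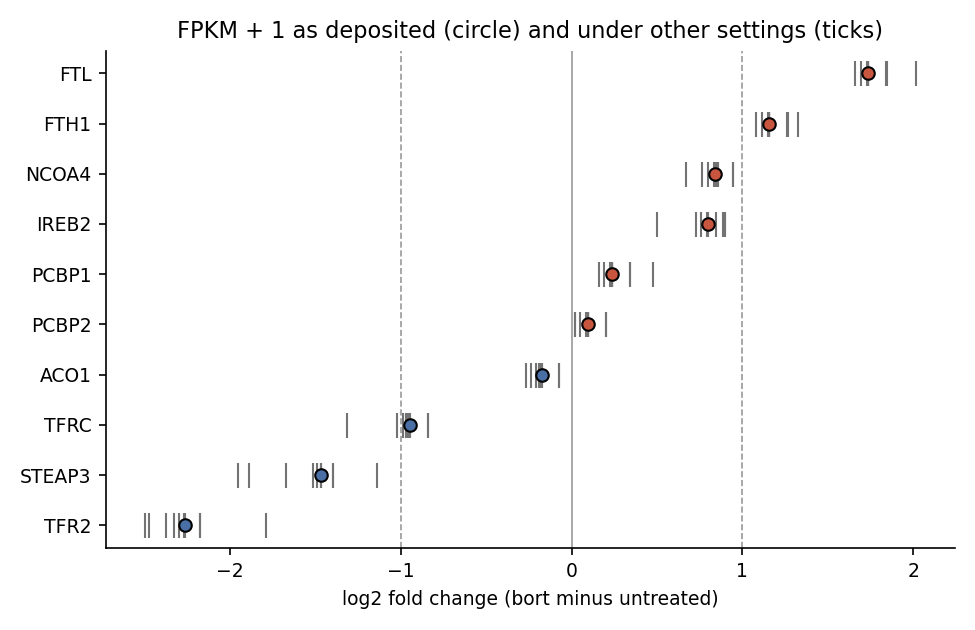
Log2 fold change (bort-treated minus untreated) of each of the 10 genes on the deposited FPKM + 1 scale (circle) and under 11 other settings (ticks, 2 of which coincide with the circle by construction), with dashed lines at 2-fold. No gene crosses 0, which a change of pseudocount could not bring about, and TFRC, at -0.95, has ticks on both sides of the line at -1.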

How the data were processed

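RNA from 2 cultures of the same cell line was sequenced, and no other samples were analysed here. Per the methods of the paper, poly-A mRNA was sequenced, HISAT2 2.0.4 was the aligner and StringTie 1.2.3 rebuilt the transcripts. The authors deposited 1 FPKM value per gene and library. The submitters' processing notes name GRCh37, and the annotation release is not given in the sources used here. Each gene reached at least 0.501 FPKM in a library, so genes below that in both were not analysed here. The depth is unknown: 121 genes of the untreated and 119 of the bort-treated library lay above 0 and below 0.2 FPKM, too few to find what 1 fragment is worth, so no interval or floor is given. The FPKM summed to 210026 and 221529.

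Log2 fold changes are differences of log2(FPKM + 1) (bort-treated minus untreated), with the 2-fold threshold of the study. A fold given beside the levels of a single gene is the plain ratio of its FPKM values. With 1 library per group no test was possible. The 10 genes and all lists were chosen with earlier results of these data known. The genes named from an iron pathway list are those with the largest rise and fall and those past 2-fold, and ALAS2 was added. The cell type markers named were not chosen by that rule. GC content is the median over the transcripts of a gene in GENCODE 29, matched by identifier for 99.3% of genes, and its trend was removed by lowess with a span of 0.3. The hairpin search read GENCODE 29 transcripts, with coordinates from its GRCh38 annotation, which is another build than that of the table. The calculations were tested on simulated data. Python 3.11.15, numpy 2.4.6, pandas 2.3.3, statsmodels 0.14.6 and matplotlib 3.10.9 were used.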

Additional observations from a re-analysis of the deposited data

How the results depend on the processing

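With 1 library per group, none could be left out, and no paired analysis was possible because each group has 1 library. Scaling each library to its total was chosen after the data were examined. A filter at 1 FPKM and the summing of rows that share a symbol could not alter the 10 genes. Under the 9 settings that could, 88 of 90 log2 fold changes kept their direction and their side of 2-fold. The exceptions were TFRC at -1.02 with libraries scaled to their totals and at -1.32 with the GC trend removed. The direction was largely fixed by construction, because a pseudocount cannot change a sign and the scalings shifted the values little. At 1.5-fold 4 of the 10 genes were higher, and at 4-fold 0 were higher and 1 was lower, as a threshold requires. Over all genes, 888 were higher and 1125 lower by 2-fold, against 2282 and 2378 at 1.5-fold and 92 and 135 at 4-fold. With a pseudocount of 0.1 FPKM 1576 were higher, with none 1654 were higher and 1708 lower, and with the GC trend removed 690 were lower; beyond the construction of these settings the cause was not tested. Of all genes past 2-fold, 44.1% were higher on the deposited scale, 54.0% with totals taken without the 20 most abundant genes, 53.9% with upper quartile scaling, 53.3% with the GC trend removed and 37.4% with libraries scaled to their totals. No ferritin pseudogene was listed, so adding them to the ferritin genes gave no other value. Because depth is unknown, the counting error of low genes such as STEAP3 cannot be given.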

Other observations

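Both libraries held 208 genes at a level of at least 100 FPKM. Those nearest to FTL in log2 fold change were MT-CYB (1.77), HSPA1A (1.80) and HSPA1B (1.66), the last pair being near-identical genes whose division is uncertain. Nearest to FTH1 were MT-CO1 (1.17), RPL35A (1.19) and PSAP (1.23), and nearest to TFRC were ANP32B (-0.94), COX8A (-0.94) and PEBP1 (-0.91). Likeness over 2 libraries is a single difference, and nothing follows from it about function.

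RefSeq promoters (GRCh38.p14, 250 bases before to 50 after each start) were matched for 8 of the 10 genes. FTH1 and TFR2 were not matched in the table used here. On either strand, the antioxidant response core TGANNNNGC was found in NCOA4 and PCBP1 and in 41.8% of all promoters, the hypoxia response core ACGTG in FTL and TFRC and in 21.4%, and GATAA in IREB2 and STEAP3 and in 22.7%. These are matches of letters and not sites.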
